A study of Mus musculus with 135 samples.

Results

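The 10 genes described here mark somatic cells of the fetal gonad: Wnt6, Irx3, Rspo1, Lhx9, Gata4, Wt1, Nr5a1, Foxl2, Wnt4 and Kctd14. They were taken by symbol from a table of 19004 genes measured in purified E13.5 primordial germ cells (PGCs), where all 10 were listed, and from count tables of 53715 genes measured in single ovulated oocytes. They were selected on their function and partly on their FPKM values, chosen by being lower in the library labelled Tet2KO than in the wild-type (WT) PGC library, so their values in that pair are a description with no test. The study measured RNA in mice of C57BL6/129 background that were WT or lacked Tet1 or Tet2, enzymes that oxidise 5-methylcytosine in DNA. The PGC samples are 1 WT library and 1 library labelled Tet2KO, each from 4 to 6 embryos pooled by group, and the labels give neither the embryos' sex nor the method of purification. The oocytes are single metaphase II cells: young (2 to 4 months) WT (38 oocytes in 4 sets), Tet1KO (15 in 2 sets) and Tet2KO (16 in 2 sets), and old (10 to 12 months) WT (12 in 2 sets), Tet1KO (6 in 2 sets) and Tet2KO (7 in 1 set). A set is a group of oocytes whose titles share an identifier, and no label says which animal a set came from.

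Germ cells reach the gonad by migration and are then enclosed by somatic cells that arise from the coelomic epithelium. Gata4, Wt1, Lhx9 and Nr5a1 encode transcription factors needed for the gonadal ridge in both sexes. In the fetal ovary the supporting cells, called pre-granulosa cells, take their identity from WNT signalling through Rspo1 and Wnt4 and from the forkhead factor Foxl2, and Irx3 is a homeobox gene of the same cells. Transcripts of these genes in a germ cell preparation are commonly read as a measure of the somatic cells that come with it.

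The 94 oocyte libraries held between 2354503 and 12472307 gene counts. The PGC table gives FPKM, a level per length of gene and per depth of library, with no read totals. Genes that hold 1 read in 1 library and none in the other, as their shared deposited p-value shows, placed the depth near 18200000 reads in WT and 17900000 in the other library. Tet2 itself stood at 3.19 FPKM in the WT PGC library and 2.96 FPKM in the library labelled Tet2KO, 92.8% of the WT level, so this gene does not separate the labels, and the library is named by its label throughout. In oocytes, Tet1 had 2 counts in young Tet1KO and 1 in old Tet1KO, against 495 and 82 in young and old WT, while Tet2 stood at 1.24 CPM in young Tet2KO and 1.27 CPM in old Tet2KO against 2.14 and 4.26 CPM in WT (CPM are counts scaled to the library total). In the PGC libraries Tet1 stood at 10.31 and 16.83 FPKM and Tet3 at 1.5 and 0.88 FPKM in the same order. The germ cell genes of highest level in WT, Pou5f1, Utf1 and Dppa5a, stood at 472.66, 460.86 and 371.74 FPKM in WT and at 537.87, 503.63 and 416.27 FPKM in the other library.

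All 10 markers were lower in the library labelled Tet2KO. Their summed level was 180.2 FPKM in WT and 64.43 FPKM in the other library, 35.8% of the WT sum, and the single genes retained between 25.4% and 57.1% of the WT level. On the scale of log2 of FPKM + 0.1, library labelled Tet2KO over WT, their median was -1.44 and 9 of 10 were at least 2-fold lower. Over the 12577 genes at 1 FPKM or more in either library the median was -0.07 and 4.41% were at least 2-fold lower. The authors' deposited table calls 9 of the 10 Down, where 3.76% of the same genes are called Down, with deposited false discovery rates from 3.45e-167 (Kctd14) to 1.95e-14 (Wnt4). Those rates come from 1 library against 1 and carry no spread between animals. The members were chosen with this contrast in view, so nothing is read from these counts. In RNA of pooled cells, fewer cells of a type and less RNA per cell cannot be told apart.

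**Figure D1:**
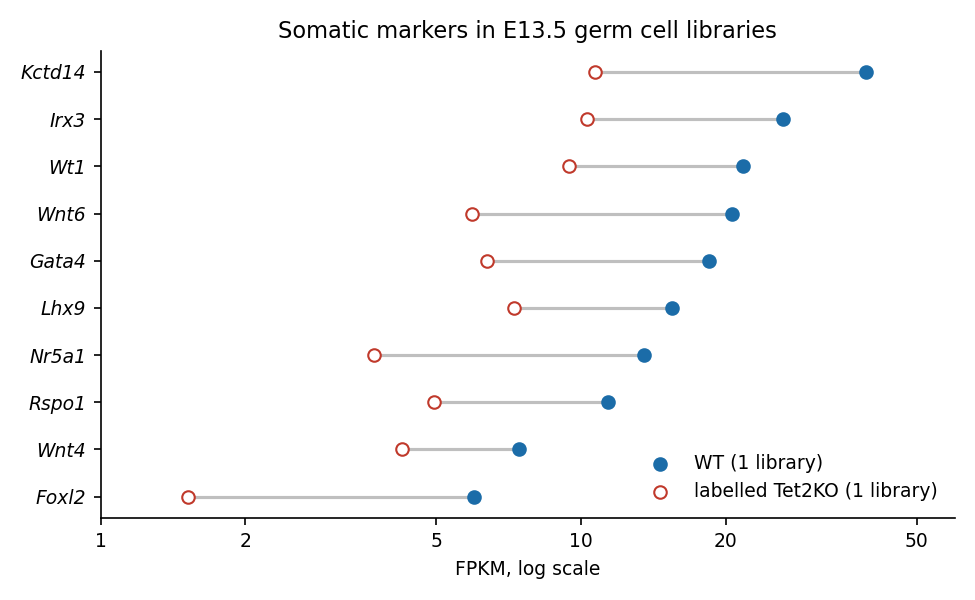
FPKM (log axis) of the 10 somatic markers in the WT PGC library (filled) and the library labelled Tet2KO (open), 1 library each, ordered by WT level and joined by a line. The WT value lies to the right for every gene, from Kctd14 at 39.2 FPKM down to Foxl2 at 5.98 FPKM.

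Among the transcription factors of the early gonad, Wt1 (chromosome 2, 105126529 to 105173616, plus strand, mm10), a zinc finger factor of the gonad and kidney, stood at 21.7 FPKM in WT and 9.45 FPKM in the library labelled Tet2KO. Gata4 (chromosome 14, 63198922 to 63271692, minus strand), a zinc finger factor needed to thicken the coelomic epithelium, stood at 18.5 and 6.38 FPKM. Both were clearly present in each library, and the distance between libraries was larger for Gata4. Lhx9 (chromosome 1, 138825186 to 138848577, minus strand), a LIM homeobox gene without which no gonad forms, stood at 15.47 and 7.26 FPKM. Nr5a1 (chromosome 2, 38692656 to 38714542, minus strand), the nuclear receptor SF-1 that drives steroid hormone genes, stood at 3.71 FPKM in the library labelled Tet2KO, 27.5% of its WT level, from about 724 reads in WT and 196 in the other library. Of these factors Nr5a1 retained the smallest share (95% interval 23.4% to 32.3%), and Lhx9 the largest, 46.9% (41.2% to 53.3%). These intervals are exact binomial ones for the reads estimated behind each value and cover counting error only.

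Foxl2, Irx3 and Kctd14 had both the least and the most abundant markers among them. Foxl2 (chromosome 9, 98955288 to 98958543, plus strand), which keeps granulosa cells from taking a testis fate, was the lowest marker in WT at 5.98 FPKM and stood at 1.52 FPKM in the other library. It retained 25.4% of its WT level (19.4% to 33.5%), from about 274 and 69 reads. Irx3 (chromosome 8, 91798525 to 91802067, minus strand) stood at 26.34 and 10.28 FPKM. Kctd14 (chromosome 7, 97451323 to 97459557, plus strand), of the KCTD family of BTB domain proteins, was the most abundant marker per length, at 39.2 and 10.71 FPKM. It alone made up 21.8% of the markers' summed FPKM in WT and 16.6% in the other library.

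The secreted ligands ranged most widely in the share they retained. Wnt6, a WNT ligand (chromosome 1, 74771892 to 74785322, plus strand) stood at 20.66 and 5.93 FPKM and retained 28.7% of its WT level (24.6% to 33.3%). Rspo1 (chromosome 4, 124986430 to 125009099, plus strand), a ligand of LGR receptors that raises WNT receptor levels at the cell surface, stood at 11.37 and 4.94 FPKM. Wnt4 (chromosome 4, 137277489 to 137299726, plus strand), the WNT ligand whose loss partly masculinises the ovary, stood at 7.44 and 4.25 FPKM. Wnt4 was the marker least apart between the libraries, at 57.1% of WT (49.3% to 66.1%), and the one the authors' deposited table does not call, with a log2 ratio of -0.81 there.

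In order of the retained share, given as a description, Foxl2, Kctd14 (27.3%, 24.6% to 30.3%), Nr5a1 and Wnt6 came lowest, then Gata4 (34.5%, 30.7% to 38.8%), and Irx3 (39%, 34.8% to 43.6%), Rspo1 (43.4%, 35.9% to 52.4%), Wt1 (43.5%, 39.2% to 48.3%), Lhx9 and Wnt4 stood higher. The intervals of neighbours in this order, such as Foxl2 and Kctd14 or Rspo1 and Wt1, overlap. Spread between animals is not measured in single libraries and would add to these intervals.

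Promoter sequences are given as a description, since standing lower together was part of how the 10 genes were chosen. RefSeq (GRCm38.p6, the mm10 build) gave a start site for 6 of the 10. The 250 bases before the start lie wholly outside the gene's annotated exons for Wnt6 and Rspo1, and these windows are shown 5′ to 3′ with each CpG, the dinucleotide that is methylated and that TET enzymes act on, in capitals. They lie at chr1:74771642-74771891 (Wnt6) and chr4:124986180-124986429 (Rspo1), both on the plus strand.
Wnt6: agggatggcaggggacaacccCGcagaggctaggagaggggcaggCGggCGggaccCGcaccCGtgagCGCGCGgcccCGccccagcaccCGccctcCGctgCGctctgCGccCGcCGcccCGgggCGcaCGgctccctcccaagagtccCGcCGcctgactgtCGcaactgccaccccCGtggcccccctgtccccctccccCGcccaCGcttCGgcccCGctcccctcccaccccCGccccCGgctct
Rspo1: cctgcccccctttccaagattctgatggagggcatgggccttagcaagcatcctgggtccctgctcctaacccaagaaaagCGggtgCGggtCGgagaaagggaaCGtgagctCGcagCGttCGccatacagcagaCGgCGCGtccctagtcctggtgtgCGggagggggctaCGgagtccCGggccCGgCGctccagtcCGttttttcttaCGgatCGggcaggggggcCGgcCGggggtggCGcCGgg
The Wnt6 window holds 28 CpGs and the Rspo1 window 22, where the median over 32851 promoter windows of the same length is 6. The other windows hold 44 (Wnt4), 22 (Foxl2), 13 (Irx3) and 4 (Lhx9), and the Lhx9 window alone was below that median. By the gene spans given above, the Foxl2, Irx3 and Lhx9 windows lie inside the gene, and the Wnt4 window partly inside. Those of Foxl2 and Irx3 lie wholly within annotated exons. The values of these windows therefore do not describe sequence upstream of the whole gene, and the low Lhx9 count is not read as that of its promoter. This limit also holds for the ratios and the motif search that follow. The ratio of observed to expected CpG was 0.76 for Wnt6, 0.80 for Rspo1, 1.0 for Wnt4, 0.70 for Foxl2, 0.79 for Irx3 and 0.22 for Lhx9, against a median of 0.37. Both strands were searched for 4 short motifs, none of which contains another, and none was found in any of the 6 windows. The NR5A1 site AAGGTCA is present in 4.08% of all windows of this length. A GATA site, searched as AGATAA, is present in 9.99% of them. For ATCAAAG, bound by the TCF and LEF factors of the WNT pathway, the share is 3.21%. The forkhead site was searched as GTAAACA and is present in 3.17%. No methylation was measured in these samples.

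Other genes of pre-granulosa cells were lower with the markers, and genes of most other cell types were less so. All gene lists were chosen with earlier results of these data known, so their counts are a description. Some genes stand in more than 1 list: of the pre-granulosa genes, Nr0b1 is also an early gonadal gene. Lgr5 and Fzd1 recur among the WNT and R-spondin genes, and Fst among those of adult granulosa cells. Of 11 pre-granulosa genes, 10 reached 1 FPKM in either library, 8 of them were at least 2-fold lower and none at least 2-fold higher, with a median log2 ratio of -1.14. Among the most abundant were Cdkn1b, a cell cycle inhibitor of the arrested pre-granulosa cell, at 12.18 and 5.69 FPKM, and Fst, the activin antagonist follistatin, at 8.41 and 2.89 FPKM. The list of early gonadal genes, which other tissues and germ cells also use, had a median of -0.26, and 1 of its 15 genes at 1 FPKM was at least 2-fold lower. That gene was Emx2, a homeobox gene of the urogenital ridge, at 8.94 and 3.03 FPKM, whereas the leading genes Cbx2, Map3k4 and Lgr4 stood at 39.86, 37.8 and 18.92 FPKM in WT and 35.02, 39.28 and 17.49 FPKM in the other library.

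Genes of testis somatic cells stood at mixed levels. Sox9, a transcription factor of Sertoli cells, stood at 0.76 and 0.55 FPKM, and Amh, a hormone those cells secrete, at 0.16 and 0.06 FPKM. Of 16 Sertoli genes 6 reached 1 FPKM, with a median log2 ratio of -0.49, led by Aard (22.3 and 23.62 FPKM), Tesc (6.62 and 4.62 FPKM) and Gstm6 (4.62 and 5.13 FPKM). Among these 6, 1 was at least 2-fold lower, Inhbb (3.9 and 1.4 FPKM). Of 7 fetal Leydig cell genes 3 reached 1 FPKM, Hsd3b6 (2.85 and 2.04 FPKM), Insl3 (2.62 and 1.4 FPKM) and Star (1.48 and 1.6 FPKM). Xist, expressed from the inactive X chromosome, stood at 2.56 and 1.7 FPKM, and the Y-linked Ddx3y at 0.02 and 0.01 FPKM.

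Erythroid transcripts were lower beside the markers. The 9 erythroid genes summed to 2991 FPKM in WT and 1075 FPKM in the library labelled Tet2KO, 35.9% of WT, a sum made up almost wholly of 4 globin genes that retained between 24.9% (Hba-a2) and 49.4% (Hba-x). All 6 at 1 FPKM or more were at least 2-fold lower (median log2 ratio -1.41), with Hba-a1 at 1192.46 and 382.4 FPKM, Hbb-y at 1001.73 and 422.45 FPKM and Hba-a2 at 498.41 and 124.32 FPKM. These are globin chains of fetal and primitive red cells, and Hba-a1 and Hba-a2 are near-identical copies whose separate values are uncertain. The part of such cells in the markers' values was not tested.

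The remaining non-germ lists lay between the markers and the germ cells. Gonad stroma had a median log2 ratio of -0.61, with 4 of 12 genes at least 2-fold lower, led by Col3a1 (10.4 and 8.24 FPKM), Col1a2 (10.18 and 8.11 FPKM) and Col1a1 (9.2 and 6.1 FPKM). Endothelium had a median of -0.88, with 4 of 8 at least 2-fold lower. Its most abundant genes were Pecam1 at 68.19 and 85.66 FPKM, which germ cells also express, Egfl7 at 6.28 and 5.87 FPKM and Cldn5 at 5.37 and 4.52 FPKM. Without Pecam1 the endothelial sum was 67.6% of WT, and with it 111%. The endothelial median without Pecam1 was -1.16, close to the -1.14 of the pre-granulosa list, and 4 of 7 genes were at least 2-fold lower. Macrophage genes had a median of -0.21 and none of 8 at least 2-fold lower, led by Cd68 (2.37 and 2.15 FPKM), C1qb (2.3 and 1.76 FPKM) and C1qc (2.15 and 2.11 FPKM). Mesonephros and mesothelium had a median of -0.33 and none of 8, led by Krt18 (33.29 and 24.4 FPKM), Krt8 (14.98 and 9.38 FPKM) and Lhx1 (7.72 and 8.05 FPKM). The 19 germ cell genes had a median of 0.14, and 15 of them were higher. The 4 that were lower were Tex101 (40.89 and 12.39 FPKM), the 1 gene at least 2-fold lower, Tdrd9 (2.05 and 1.06 FPKM), Mael (112.01 and 80.19 FPKM) and Ddx4 (128.38 and 93.69 FPKM). No gene of any of these lists was at least 2-fold higher.

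**Figure D2:**
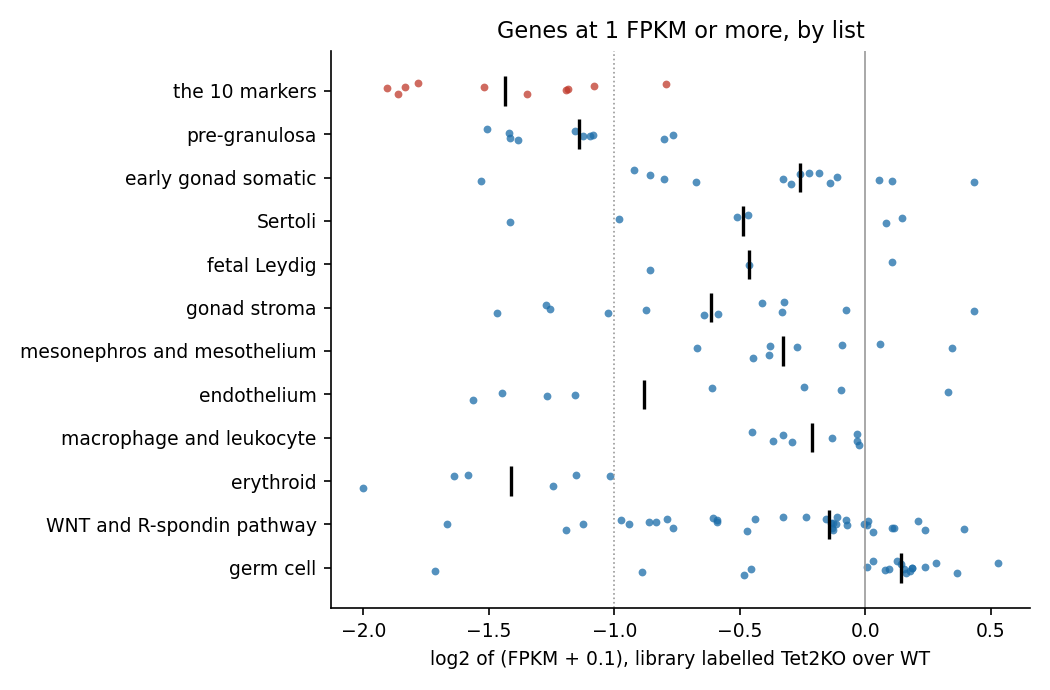
Log2 of FPKM + 0.1, library labelled Tet2KO over WT, for the genes of 12 lists that reached 1 FPKM in either PGC library. Each point is a gene, black bars are list medians, and the dotted line marks a 2-fold lower value. The 10 markers (red, median -1.44) and the erythroid list (-1.41) lie farthest left, and the germ cell list (0.14) right of 0.

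Wnt6, Wnt4 and Rspo1 act through frizzled and LGR receptors on beta-catenin, and the median of the rest of that pathway was close to that of all genes. Of 41 further WNT and R-spondin genes, 34 reached 1 FPKM, and 26 of these were lower. Their median log2 ratio was -0.15, against -0.07 over all genes at 1 FPKM. None was at least 2-fold higher and 3 were at least 2-fold lower, where 4.41% of all genes at 1 FPKM were. The 3 were Sp5, a direct target of beta-catenin (18.88 and 5.87 FPKM), Lgr5, a receptor of R-spondins (2.67 and 1.17 FPKM), and the ligand Wnt9a (1.89 and 0.77 FPKM). Beta-catenin itself, Ctnnb1, stood at 246.27 and 264.83 FPKM. Porcn, which acylates WNT ligands before secretion, stood at 92.14 and 92.78 FPKM, and the nuclear factor Tcf7 at 69.71 and 63.57 FPKM.

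Relatives of the markers were set beside them by family, an overview made after their values were seen. In the GATA, IRX, LHX, WNT, RSPO and NR5A families, 14 genes other than the markers reached 1 FPKM in either PGC library. Their median log2 ratio was -0.41, and 2 of them were at least 2-fold lower, Irx5 (2.64 and 0.95 FPKM) and Wnt9a. Gata2, the GATA gene of highest FPKM here, stood at 122.97 and 105.72 FPKM, and Gata6, a partner of Gata4 in the gonad, at 9.67 and 5.06 FPKM. Nr5a2, the close relative of Nr5a1, stood at 8.75 and 13.68 FPKM, higher in the library where Nr5a1 was lower.

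In ovulated oocytes 9 of the 10 markers were at or near 0, and Gata4 was not. Over 94 oocytes and 422218726 counts, Wnt6, Rspo1 and Kctd14 had no count. A limit from 3 counts over all oocytes is 0.00711 CPM for each, and the exact Poisson 95% interval reaches 0.00874 CPM. Foxl2 had 1 count, Irx3 3 counts in 3 oocytes, Wnt4 4 in 3, Wt1 10 in 6 and Nr5a1 12 in 8. Lhx9 was highest among the 9, with 62 counts in 24 oocytes, 0.147 CPM (exact Poisson 95% interval 0.113 to 0.188, counting error only). Together the 9 had 92 counts, 56 oocytes had none of them, and no oocyte had more than 9. Gata4 had 14972 counts, 35.5 CPM (34.9 to 36), and was counted in 94 of 94 oocytes.

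**Figure D3:**
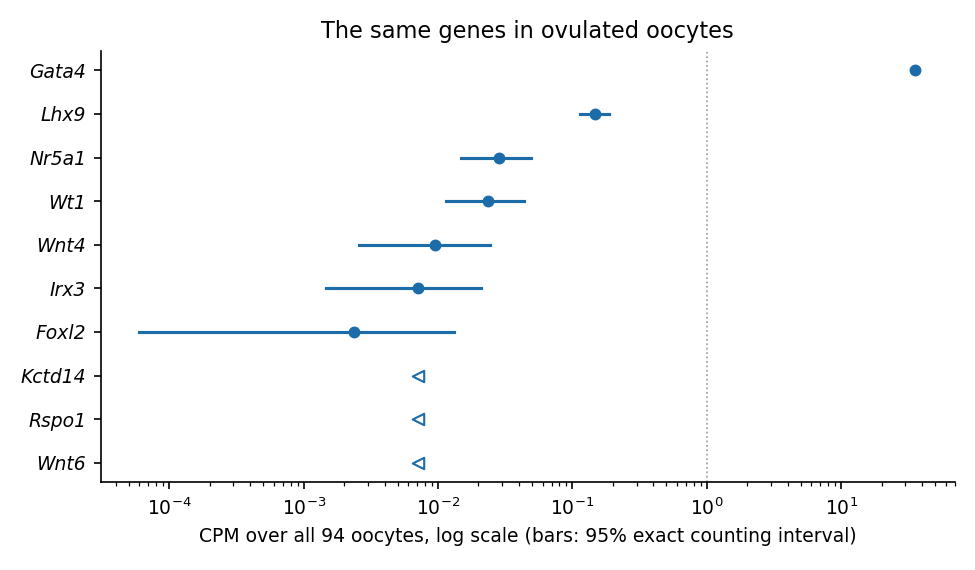
CPM (log axis) of each marker over all 94 oocytes, with exact 95% Poisson intervals. Left-pointing triangles mark the limit from 3 counts (0.00711 CPM) for the 3 genes with no count, and the dotted line marks 1 CPM, which Gata4 alone passes, at 35.5 CPM.

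The few counts of the 9 markers were spread unevenly over oocytes. Of the 62 Lhx9 counts, 8 lay in the single oocyte of set Old_Tet1-/-_315, and 9 of the 94 oocytes had 3 or more. Nr5a1 had 4 of its 12 counts in oocyte S1618 (old Tet2KO), and Wt1 had 4 of its 10 in oocyte Young_WT__246_15. Each of these oocytes held counts of mainly 1 of the 9 genes, and no oocyte held counts of more than 3 of them. Oocyte S1616 (old Tet2KO), which stands apart by macrophage transcripts (879.4 CPM over that list, where the median oocyte had 22.82), had no count of any of the 9. By group, Lhx9 stood between 0.0899 CPM (old WT, interval 0.0292 to 0.21) and 0.307 CPM (old Tet1KO, 0.14 to 0.582), with overlapping intervals.

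Genes of adult granulosa and cumulus cells, which surround the ovulated oocyte, were mostly as low as the 9 markers. Of 24 such genes 15 stood below 0.1 CPM and 4 at 1 CPM or more. The 3 of highest CPM were Serpine2, a protease inhibitor, at 1480 CPM, Esr2, an oestrogen receptor, at 90.8 CPM, and Cyp19a1, aromatase, at 36.9 CPM, each counted in 94 of 94 oocytes. Nr5a2 also passed 1 CPM, at 10.5 CPM. Other genes of the list were near 0, with Amhr2 at 2 counts, Fst at 5, Inha at 9, Fshr at 17 and Inhbb at 0 over all oocytes. These low genes were picked from the list after their values were seen. In the PGC libraries 8 genes of this list reached 1 FPKM and 5 of them were at least 2-fold lower, Amhr2, Fst, Inha, Inhbb and Cd44. The other 3 were Nr5a2 (8.75 and 13.68 FPKM), Serpine2 (7.83 and 6.07 FPKM) and Star (1.48 and 1.6 FPKM). The part of cumulus cells in the oocyte Gata4 signal was not tested.

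Per length, Gata4 stood at 9.08 CPM per kilobase over all oocytes, from 7.27 (young Tet2KO) to 9.71 (old Tet2KO) by group. Its family held other oocyte transcripts, Gata3 at 15 and Gata1 at 3.03 CPM per kilobase, while Gata2, abundant in PGCs, stood at 0.0715 and Gata6 at 0.32. Of the R-spondins, Rspo1 had no count in oocytes and Rspo2 stood at 51.6 CPM per kilobase, and Rspo2 stood at 0.02 and 0.06 FPKM in the PGC libraries. Among LIM homeobox genes, Lhx8, a factor of oocyte development, stood at 24.1 and Lhx9 at 0.0155 CPM per kilobase. Nr5a2 stood at 1.78 and Nr5a1 at 0.0067 CPM per kilobase. PGC and oocyte libraries were made by different protocols, so levels between them are given side by side with no fold.

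Gata4 varied widely between oocytes and sets. Single oocytes ranged from 11.76 to 97.41 CPM with a median of 32.95, from 43 to 607 counts each. In young WT the sets stood at 35.5 (T148), 21 (T211), 33.8 (T231) and 46.3 CPM (Young_WT__246), 34.2 ± 10.4 (SD, n = 4 sets). In young Tet1KO they stood at 26.9 (T146) and 55.7 CPM (Young_Tet1-/-_201), 41.3 ± 20.4 (n = 2), and in young Tet2KO at 31.6 (T213) and 24.9 CPM (T214), 28.2 ± 4.74 (n = 2). Of the young Tet1KO sets 1 lay within the young WT range and the other above it, and both young Tet2KO sets lay within the WT range. In old WT the sets stood at 54.8 (Old_WT_365) and 25.1 CPM (Old_WT_247), 40 ± 21 (n = 2), in old Tet1KO at 34 (Old_Tet1-/-_209) and 22.9 CPM (Old_Tet1-/-_315, 1 oocyte), 28.4 ± 7.82 (n = 2), and in old Tet2KO at 37.9 CPM (S161). The groups of old oocytes overlapped with each other and with the young ones.

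**Figure D4:**
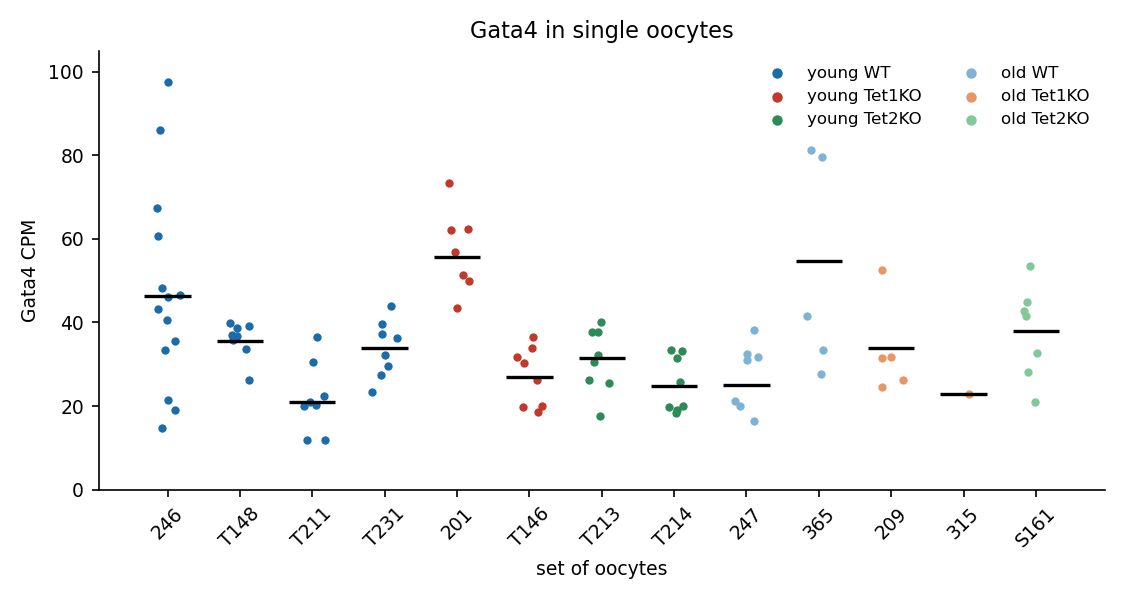
Gata4 CPM in each of 94 oocytes, by set and coloured by group. Points are oocytes and black bars are the value of the summed counts of the set. Set values run from 21 CPM (T211) to 55.7 CPM (Young_Tet1-/-_201), and every group overlaps with young WT.

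Gata4 was the 1 marker abundant enough to test, and it passed in none of 5 comparisons. The tests used edgeR's quasi-likelihood F test on counts summed per set. They covered the 14418 genes with at least 1 CPM in at least 2 sets, with Benjamini-Hochberg adjustment at 0.05. The p-values rest on a spread between sets that was estimated over all 13 sets together. Old Tet2KO, with 1 set, adds no spread of its own. In young Tet1KO against young WT, 0 of 1 tested marker was called, where 0.0208% of tested genes were called. The Gata4 log2 change was 0.05 (SE 0.35, edgeR adjusted p = 0.994). In young Tet2KO against young WT, where 0.0139% of genes were called, it was -0.09 (SE 0.34, edgeR adjusted p = 0.978). In old Tet1KO against old WT, where 0.0347% were called, it was -0.34 (SE 0.39, edgeR adjusted p = 0.741). In old against young WT, where 0.0416% were called, it was -0.40 (SE 0.43, edgeR adjusted p = 0.731). In old Tet2KO against old WT, where 0.0139% were called, it was -0.09 (SE 0.59, edgeR adjusted p = 1). Unadjusted, Gata4 had an edgeR p under 0.05 in 0 of these 5, and DESeq2 and limma called it in 0 of 5. The other 9 markers did not reach the minimum level. With no filter on low counts, 6 of them entered the edgeR fit and 0 were called in any of the 5 comparisons, with 0 unadjusted p under 0.05 (the lowest was 0.067, for Lhx9 in old Tet1KO against old WT, edgeR adjusted p = 0.645), from 1 to 62 counts each over all oocytes. Of the 33500 genes in that fit, between 226 (young Tet2KO against young WT) and 669 (old against young WT) were called per comparison.

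The standard errors leave room for sizeable differences in Gata4, and 1 set could turn its direction. Without set Old_WT_365 the change in old Tet1KO against old WT was 0.37 instead of -0.34. The difference between the old and the young Tet1KO effect was -0.39 (SE 0.52, edgeR unadjusted p = 0.472, adjusted p = 0.911).

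Sets carry lettered or numbered names, which coincide with the deposited count table, and Gata4 stood at 30.2 ± 6.13 CPM in the lettered sets (SD, n = 7) and 39.8 ± 14.5 CPM in the numbered ones (n = 6). Within the lettered sets, young Tet1KO (26.9 CPM) lay inside the young WT range of 21 to 35.5 CPM. Within the numbered sets it stood at 55.7 CPM against 46.3 CPM in WT. Old WT sets were all numbered, at 54.8 and 25.1 CPM on either side of the numbered young WT set. Old Tet2KO had 1 lettered set and old WT none, so group and naming cannot be told apart there.

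The genes most like Gata4 over the 13 sets, by Spearman's rho of CPM among tested genes, were Cdkn1c (0.918), an imprinted cell cycle inhibitor, Ptpn4 (0.918), a tyrosine phosphatase, and Snrpd2 (0.907), a core protein of the splicing machinery. Their median levels were 2.43, 1.29 and 1.05 CPM, far below Gata4. These are the largest values over all 14418 tested genes, from sets that share naming and differ in depth, and are given as a description. Of all list genes tested in oocytes, Tet1 in young Tet1KO was the 1 that passed the edgeR test (log2 change -6.96, adjusted p = 0.0136). Tet1 in old Tet1KO, at 1 count against 82 in old WT, did not pass, so the test can miss a large difference. No gene of the WNT and R-spondin list, 20 of 41 of which stood at 1 CPM or more, passed in any of the 5 comparisons.

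The exons of 2 markers overlap a gene on the opposite strand, and the oocyte counting did not use strand. Irx3 shares 124 exonic bases with Irx3os, which had 0 counts, and Foxl2 shares 12 with Foxl2os, which had 9 counts over all oocytes. Neither overlap changes which markers were near 0. The exons of the other 8 markers, Gata4 included, overlap no other annotated gene in the oocyte tables.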

How the data were processed

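RNA was measured by sequencing in 2 PGC libraries and in single oocytes, of which 94 were used. The members and all gene lists were chosen with earlier results of these data known. The authors deposited PGC values as FPKM, with a log2 ratio, a p-value, a false discovery rate and a call from a Poisson method, per the file headers. The authors deposited oocyte values as gene counts, made with featureCounts 1.6.2 on GENCODE mouse release 17 at mapping quality 30 or more, per the file headers. There, multi-mapped and multi-overlapping reads are counted and strand is not used. HISAT2, SAMtools and mm10 are named in the submitters' processing notes.

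PGC log2 ratios were computed from FPKM + 0.1, with no test. Reads behind an FPKM were estimated from genes of 400 to 1000 bases with 1 read in 1 library (144 and 110 genes). By that scale, 89.5% and 88.4% of low values lay within 0.2 of a whole read. Oocyte counts were summed into 13 sets and fitted in edgeR 4.0.16 (R 4.3.3, TMM) with group and naming series, and without the series for old Tet2KO. DESeq2 1.42.0 and limma 3.58.1 were alternatives. SE is the absolute log2 change over the square root of F. Ensembl identifiers were matched to symbols, and 95 had none. The written rule named the 10 members, the Tet genes, the 3 genes of highest WT PGC FPKM in each list, called list genes, the sex-linked list, overlapping genes and the 3 genes most like a member. The values of 1 gene that the rule names are not reported here. Y-linked genes other than Ddx3y were not in the PGC table used. Other cell type genes, called pathway genes and family relatives named beyond it were chosen after their values were seen. Of the oocyte samples 39 could not be mapped to a column and 39 count columns match no sample. Neither were used. Apart from the table named, 39 of those 39 samples have the title of a numbered oocyte used here, and in 38 title and characteristics contradict each other, which they do in 0 of the 39 numbered oocytes used. That doubt bears on the groups of all numbered sets. No pair of 342 within sets was identical.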

Additional observations from a re-analysis of the deposited data

Results flagged for a closer look

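Values standing apart from the rest of their group were looked for in 24 groups of 4 to 10 values of Gata4 and of the 9 other markers, by Dixon's test at 95%, and 4 groups held one. For normally distributed values chance alone gives about 1 in 20 groups. The 9 other markers had no count in 56 of 94 oocytes, so that rate does not hold for their sums. Gata4 stood at 26.16 CPM in oocyte T1481 (young WT), below the next oocyte of its set at 33.55 CPM. It stood at 52.56 CPM in oocyte Old_Tet1-/-_209_4, above the next at 31.75 CPM. The 9 other markers summed to 0.891 CPM in oocyte T2137 and to 1.2 CPM in oocyte T2146 (both young Tet2KO), where the next oocytes of their sets stood at 0.352 and 0.261 CPM. These sums rest on 4 and 5 counts, all of Lhx9.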

How the results depend on the processing

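In the PGC libraries each of the 50 values of a marker under the alternatives stayed below 0, between -2.05 and -0.68. The markers' median lay between -1.58 and -1.34, with 8 or 9 of 10 at least 2-fold lower. A pseudocount cannot turn a sign, and the medians subtracted (-0.07 and 0.14) were small beside the marker values. The markers were chosen with this contrast in view, so staying below 0 is no test. With a pseudocount of 1 FPKM, Nr5a1 moved to -1.62 and Foxl2 to -1.47. Taking every gene, 5.89% were at least 2-fold lower. The count of called markers in oocytes was 0 in each of 47 alternative settings. Gata4 was the 1 marker tested in them, except with no filter on low counts, where 7 markers entered. Over all genes, the calls in these settings ran from 0 (limma, young Tet1KO against young WT) to 669 of 33500 (no filter, old against young WT). The sign of the Gata4 change, never past the threshold, turned in some. For young Tet1KO against WT it was -0.09 without the 3 ribosomal-rich oocytes (chosen after seeing the data) and lay between -0.13 and 0.30 with each set left out. For young Tet2KO it lay between -0.26 and 0.07 and for old Tet1KO between -0.80 and 0.37 with a set left out. For old against young WT it was 0.20 without the naming term and lay between -1.11 and 0.05 with a set left out. For old Tet2KO it was 0.03 with limma and lay between -0.58 and 0.60 with a set left out. The cause was not tested. No paired analysis was possible because set numbers are not shared between groups and each PGC group has 1 library.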
